A study of Citrus sinensis with 36 samples.

Results

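The comparison described here was between the pulp of 2 Valencia oranges, Delta Valencia and Cutter Valencia, both clonally propagated varieties of sweet orange (Citrus sinensis). It rested on 3 Delta pulp libraries and 3 Cutter pulp libraries, out of 36 libraries of 6 varieties and 2 fruit tissues. All fruits were picked 220 days after flowering (DAF), when the Valencia oranges were still colouring, and peel and pulp were separated by hand. The study describes Delta as a seedless, orange-red variety and Cutter as a seeded selection from nucellar seedlings with an orange-yellow, rough surface. No treatment was applied to any tree, all trees stood in the same nursery, and each replicate pooled the fruit of several trees, so a library is not a single fruit. The other Valencia, Rohde Red, is a deep orange bud mutation that is also listed as without seeds. The 3 common sweet oranges (CO) Jincheng, Taoye and Xianfeng are mid-ripening and were mature at that date. Rohde Red and the CO varieties are used below only to place the levels of Delta and Cutter. A gene entered the comparison where its mean reached 0.3 FPKM (mapped fragments scaled for gene length and library size) in either variety, which kept 16474 of the 29654 genes in the table.

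Orange pulp consists of juice sacs, stalked vesicles packed with large vacuolated cells, inside segment membranes that carry vascular bundles. Juice sacs are covered by an epidermis with a thin cuticle of cutin and wax, and their sugar and acid enter through the stalk and are stored in the vacuole. Cell walls of cellulose, xyloglucan and pectin, stiffened in places by lignin and by structural proteins such as extensins, set how a segment breaks when chewed, which is the trait the study asked about. The varieties differ by mutations and selection within a single clonal lineage, so the comparison asks how far the pulp transcriptomes of close relatives diverge. A whole-tissue library gives an average over cells, and fewer cells of a type and less RNA per cell cannot be told apart in it.

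The libraries of the varieties separated clearly. Correlations of log2(FPKM + 0.1) between libraries lay between 0.985 and 0.986 within Delta, between 0.984 and 0.985 within Cutter, and between 0.965 and 0.973 across the varieties. The table's values gave whole fragments once multiplied by gene length and library size, and mapped fragments were 15.6, 17.1 and 16.7 M in Delta pulp and 18.5, 16.98 and 18.6 M in Cutter pulp. A gene was called when limma, which borrows the spread between libraries across genes, gave an adjusted p (Benjamini-Hochberg, all 16474 genes) under 0.05. By this rule 3000 genes (18.2%) differed, of which 1776 (10.8%) were higher and 1224 (7.43%) lower in Delta. Most differences were small: the median size among called genes was 0.39 on the log2 scale, and 494 genes (3.00%) were both called and changed at least 2-fold, 306 (1.86%) higher and 188 (1.14%) lower in Delta. The 3 libraries of each variety did not overlap in 2994 of the 3000 called genes, against 6034 (36.6%) of all genes kept. A p-value here is set against how much the 3 pooled-fruit libraries of a variety scatter, and since they scattered little, even small shifts of abundant transcripts passed.

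**Figure D1:**
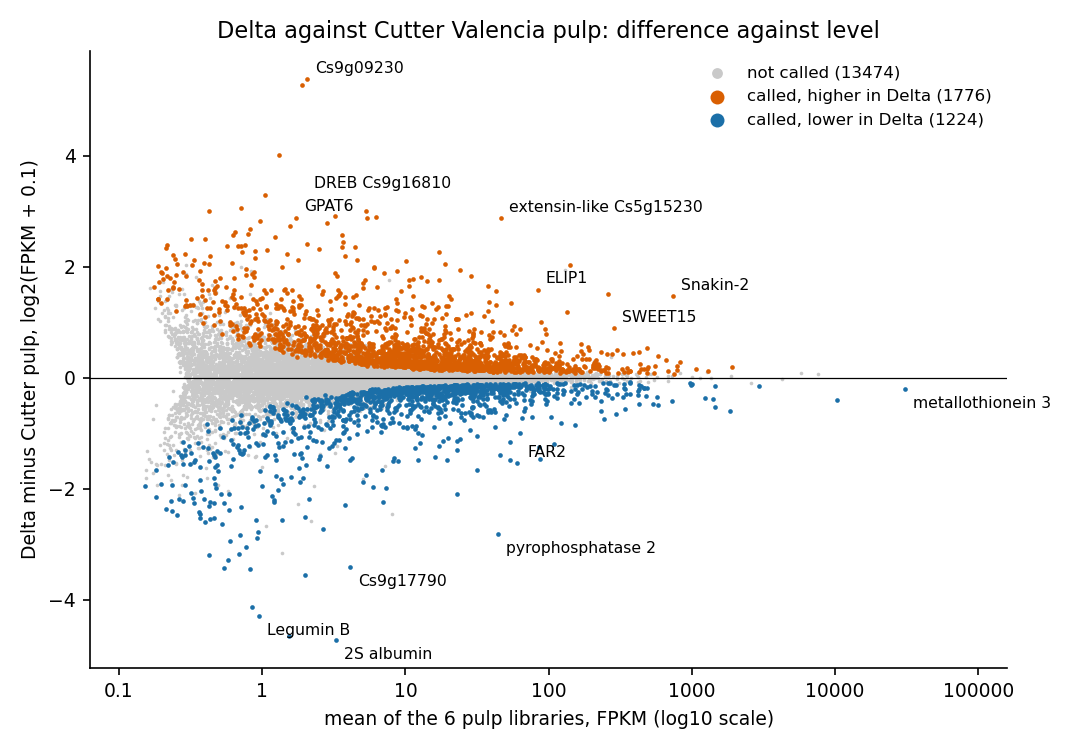
Difference between Delta and Cutter pulp (log2(FPKM + 0.1), Delta minus Cutter, vertical axis) against the mean FPKM of the 6 pulp libraries (log10 scale, horizontal axis) for the 16474 genes kept. Orange points are the 1776 genes called higher in Delta, blue points the 1224 called lower and grey points the rest, and differences beyond 2 on the log2 scale are seen mostly below 10 FPKM, with the extensin-like Cs5g15230 and pyrophosphatase 2 among the exceptions.

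The 5 most abundant called transcripts all changed by less than 2-fold. Cs1g07330, a type 3 metallothionein that binds metal ions, had 28936, 27972 and 28337 FPKM in Delta pulp, against 33365, 33533 and 31630 FPKM in Cutter pulp (log2 difference -0.21 ± 0.03 SE, adjusted p = 0.0018). Cs5g27060, similar to the cold-regulated protein SRC1, was also lower, by a log2 difference of -0.40 ± 0.03 (adjusted p = 1.5e-05), and so was the thiamine thiazole synthase Cs4g11090 of vitamin B1 synthesis (-0.15 ± 0.02, adjusted p = 0.0012). Quantile normalization forces the top ranks of all libraries to equal values, and these 3 calls were lost under it, the first also with no filter on low values. The small mitochondrial heat shock protein Cs1g12560 was lower at 1438 to 1481 FPKM in Delta, against 2088 to 2301 FPKM in Cutter (-0.60 ± 0.04, adjusted p = 1.1e-05). Of the 5 most abundant called genes only Cs2g02180, resembling a latex allergen, was higher (0.19 ± 0.02, adjusted p = 0.00047).

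Genes of the cuticle stood higher in Delta pulp. Of 37 cutin and wax genes kept, 17 were called higher and 8 lower, together 67.6% against the 18.2% of all genes, with a median log2 difference of 0.24 against 0.0007 over all genes. Without Cutter library 2 the lower calls numbered 5. Cs6g07920, a glycerol-3-phosphate acyltransferase 6 (GPAT6) that builds cutin precursors, had 3.12, 3.23 and 2.97 FPKM in Delta pulp, against 0.364, 0.376 and 0.267 FPKM in Cutter pulp. Every Delta library was far above every Cutter library, a log2 difference of 2.89 ± 0.16 (adjusted p = 7.4e-06). The long chain acyl-CoA synthetase 2 (LACS2) gene Cs5g28330, whose Arabidopsis counterpart activates fatty acids for cutin, had 6.401, 6.08 and 6.19 FPKM in Delta, against 0.961, 0.859 and 1.08 FPKM in Cutter (2.57 ± 0.11, adjusted p = 1.3e-06). The most abundant called riser, orange1.1t00375 (GPAT8), averaged 59.4 FPKM in Delta and 40.1 FPKM in Cutter (0.57 ± 0.03, adjusted p = 7.4e-06). The GDSL esterase Cs5g25590 had 3.01, 2.27 and 2.37 FPKM in Delta and 0.0347, 0.133 and 0.0345 FPKM in Cutter, the largest rise among called genes with fragments in both varieties (4.03 ± 0.28, adjusted p = 2.6e-05). GDSL enzymes of this kind include the synthases that polymerize cutin, but the description alone does not show that this gene is such an enzyme.

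The cuticle genes did not move as a block. The fatty acyl-CoA reductase 2 gene Cs6g12890, an enzyme type that makes fatty alcohols, had 31.3, 30.7 and 30.2 FPKM in Delta pulp, against 89.5, 95.0 and 84.7 FPKM in Cutter pulp, and fell by 1.54 ± 0.04 (adjusted p = 2.0e-07). Its neighbour by ID, Cs6g12880, a BAHD acyltransferase named here after its values were seen, had 45.1, 47.0 and 46.6 FPKM in Delta and 125, 131 and 128 FPKM in Cutter (-1.47 ± 0.03, adjusted p = 7.2e-08). In peel 5 of 44 cutin and wax genes were higher and 12 lower in Delta, with a median of -0.13 on the log2 scale. Over all 17694 genes kept in peel 32.7% were called, and the median was 0.013. For GPAT6 (Cs6g07920) the peel difference was -0.40, and the difference between the tissues passed its own test (3.29, adjusted p = 7.7e-08).

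Lipid transfer proteins, small secreted proteins that carry lipids to the cell surface, were called mostly on the Delta side. Of 12 kept, 6 were higher and 1 lower in Delta pulp (58.3% called, median 0.44). In peel, where 32.7% of all genes were called, 8 of 16 were higher and none lower, with a median of 0.28. Cs6g18330 led them with 227, 220 and 230 FPKM in Delta, against 157, 149 and 155 FPKM in Cutter (0.55 ± 0.03, adjusted p = 4.8e-06), and Cs6g09950 averaged 29.4 ± 4.79 FPKM in Delta and 11.01 ± 4.48 FPKM in Cutter (SD, n = 3 each). The exception, the GPI-anchored orange1.1t01623, was at 0.238, 0.794 and 0.296 FPKM in Delta, against 0.935, 3.06 and 6.64 FPKM in Cutter. Its Cutter libraries were widely spread, and its call (adjusted p = 0.026) was lost without Delta library 1 or 3 or without Cutter library 2 or 3.

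Summed markers of surface and peel tissue were also higher in Delta pulp. The 61 cuticle and epidermis markers were chosen by words for cutin, wax and lipid transfer proteins, so they overlap with the lists above. Their summed FPKM was 562 to 576 in Delta pulp and 415 to 431 in Cutter pulp. That of 50 genes that mark peel in the CO varieties, a measure of peel left on the pulp, was 142 to 152 in Delta and 76.8 to 87.9 in Cutter, beside 3293 to 3477 in Delta peel and 2818 to 2966 in Cutter peel, and 12 of the 33 kept in pulp were called higher and 3 lower, or 9 to 11 and at most 1 with any single library left out. In Rohde Red pulp the same sum was 193 to 199. The part of these markers in the cuticle result was not tested.

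Cell wall genes gave more called members than any other list used here, but not the largest share of a list. Among 86 genes of cellulose, xyloglucan and expansins, 38 were higher and 9 lower in Delta (54.7% called, against 18.2% of all genes, median 0.22). Of these 10 rose and 2 fell at least 2-fold. The share was larger for cutin and wax (67.6%), lipid transfer proteins (58.3%), dehydrin and cold-regulated genes (58.3%) and ERF and DREB factors (56.1%). Of the 15 largest rises the gene of highest level was Cs5g15230, which has no curated description and resembles extensin-1, a rod-like protein that crosslinks walls. It had 81.5, 80.5 and 82.0 FPKM in Delta pulp, against 11.6, 12.2 and 9.34 FPKM in Cutter pulp (2.88 ± 0.09, adjusted p = 2.5e-07). The level in Rohde Red was 80.4, 84.9 and 85.8 FPKM, close to Delta, while the CO means were 0.285 in Jincheng, 0.0497 in Taoye and 10.0 in Xianfeng. Cs3g21160, an Extensin-3 gene picked out after its values were seen, had 219, 257 and 203 FPKM in Delta, against 53.7, 54.5 and 55.9 FPKM in Cutter (2.04 ± 0.07, adjusted p = 5.5e-07).

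Enzymes that cut and rejoin xyloglucan, the tether between cellulose fibrils, were among the risers. The xyloglucan endotransglucosylase gene Cs1g21130 had 4.48, 4.43 and 3.76 FPKM in Delta, against 0.624, 0.973 and 0.738 FPKM in Cutter (2.31 ± 0.16, adjusted p = 2.7e-05). The largest fall of the list was the endoglucanase Cs5g03000, at 0.0977, 0.244 and 0.228 FPKM in Delta, against 1.85, 1.17 and 1.80 FPKM in Cutter (-2.57 ± 0.30, adjusted p = 0.00047). Expansins, which loosen walls without cutting them, went both ways. Expansin-A2 (Cs7g29830) averaged 275 ± 3.6 FPKM in Delta and 408 ± 10.7 FPKM in Cutter (-0.57 ± 0.03, adjusted p = 2.2e-06), while Expansin-A4 (Cs6g06530), chosen after its values were seen, averaged 146 ± 4.42 FPKM in Delta and 94.96 ± 1.77 FPKM in Cutter (0.62 ± 0.03, adjusted p = 3.4e-06). All 3 Delta libraries were on the same side of all 3 Cutter libraries in each of these genes.

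Pectin, the gel between wall fibrils, is de-esterified by pectin methylesterases and cut by polygalacturonases and pectate lyases. Of 76 pectin-modifying genes kept, 26 were higher and 9 lower in Delta (46.1% called, median 0.10). In the study's own list of pectin methylesterases, 7 of 15 kept were higher and none lower (46.7% called, median 0.25), or 6 higher and 1 lower without Delta library 2. In its list of polygalacturonases 1 of 7 was higher and 1 lower, and none was called without Cutter library 1 or 2 or without any 1 of the Delta libraries, while without Cutter library 3 there was 1 higher call. Cs2g07660, a pectin methylesterase, had 29.6, 26.6 and 25.8 FPKM in Delta, against 9.86, 12.3 and 11.2 FPKM in Cutter (1.29 ± 0.08, adjusted p = 1.5e-05), and was higher in peel as well (1.43, adjusted p = 8.0e-07). The most abundant genes of the group split: the pectate lyase Cs5g06600 was lower in Delta, at 1056 to 1101 FPKM, against 1360 to 1428 FPKM in Cutter (-0.37 ± 0.03, adjusted p = 2.9e-05), and the polygalacturonase inhibitor Cs7g18970 was higher, at 481 to 502 FPKM, against 351 to 363 FPKM (0.46 ± 0.02, adjusted p = 6.0e-06). The study names the polygalacturonases Cs8g01300 and Cs1g12840 and the pectin methylesterase Cs4g15560 for higher levels in CO than in Valencia pulp. Between Delta and Cutter they were not called, at log2 differences of -0.07, -0.17 and -0.10 and adjusted p of 0.66, 0.33 and 0.71. Cs7g19180, named by the study for the same contrast, was higher in Delta than in Cutter (0.88 ± 0.22, adjusted p = 0.025). That call was lost without Cutter library 1 or 2 or Delta library 2 or 3 (adjusted p of 0.062 to 0.086).

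Phenylpropanoid genes, which turn phenylalanine into the building blocks of lignin, had a one-sided but modest shift. In the study's list 8 of 23 kept were higher and none lower (34.8% called), yet the list's median was only 0.03. The study singled this pathway out by comparing Valencia with CO varieties, with Delta and Cutter both on the Valencia side. It drew on regions selected in resequenced genomes and on RNA levels, and added measured lignin and qRT-PCR. The RNA part used the same libraries as here, so the count is not independent of that choice. By description alone 18 of 68 phenylpropanoid enzymes were higher and 6 lower (35.3% called, median 0.03). The clearest was Cs8g05410, a caffeoyl-CoA O-methyltransferase that methylates lignin precursors, with 22.3, 22.6 and 23.8 FPKM in Delta, against 8.41, 10.3 and 10.3 FPKM in Cutter (1.24 ± 0.08, adjusted p = 1.5e-05). It was not called in peel (0.09, adjusted p = 0.1), and the difference between tissues passed its test (1.15, adjusted p = 4.8e-06). The cinnamoyl-CoA reductase orange1.1t02754 and the cinnamyl alcohol dehydrogenase Cs8g04980, successive reducing steps of monolignol synthesis, were higher by 0.45 ± 0.03 (adjusted p = 2.1e-05) and 0.46 ± 0.03 (adjusted p = 3.9e-05). The study names the caffeoyl-CoA O-methyltransferase Cs1g12670, among other lignin genes, for higher levels in Valencia than in CO fruit. It names Cs1g22450, among others, for lying in a region selected in Valencia genomes. Between Delta and Cutter neither Cs1g12670 nor Cs1g22450 was called (0.13, adjusted p = 0.57, and -0.19, adjusted p = 0.089). For higher levels in Valencia the study also names another caffeoyl-CoA O-methyltransferase, a cinnamyl alcohol dehydrogenase and an O-methyltransferase. Their Delta and Cutter values are not given here, so the study's named lignin genes are not described as a set.

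Laccases and class III peroxidases oxidize monolignols so that they polymerize in the wall. Of 20 kept, 8 were higher and 1 lower in Delta (45.0% called, median 0.42), the lower call being lost without Cutter library 2 or any 1 of the Delta libraries. Peroxidase 42 (Cs2g03110) had 75.4, 77.1 and 72.1 FPKM in Delta pulp, against 38.5, 39.9 and 38.7 FPKM in Cutter pulp (0.94 ± 0.03, adjusted p = 5.5e-07), and its Rohde Red mean was 75.1 FPKM. Peroxidase 3 (Cs5g32270) was at 4.34, 3.73 and 3.57 FPKM in Delta, against 0.935, 1.60 and 1.45 FPKM in Cutter (1.51 ± 0.19, adjusted p = 0.0007). Both sets of libraries were fully apart.

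**Figure D2:**
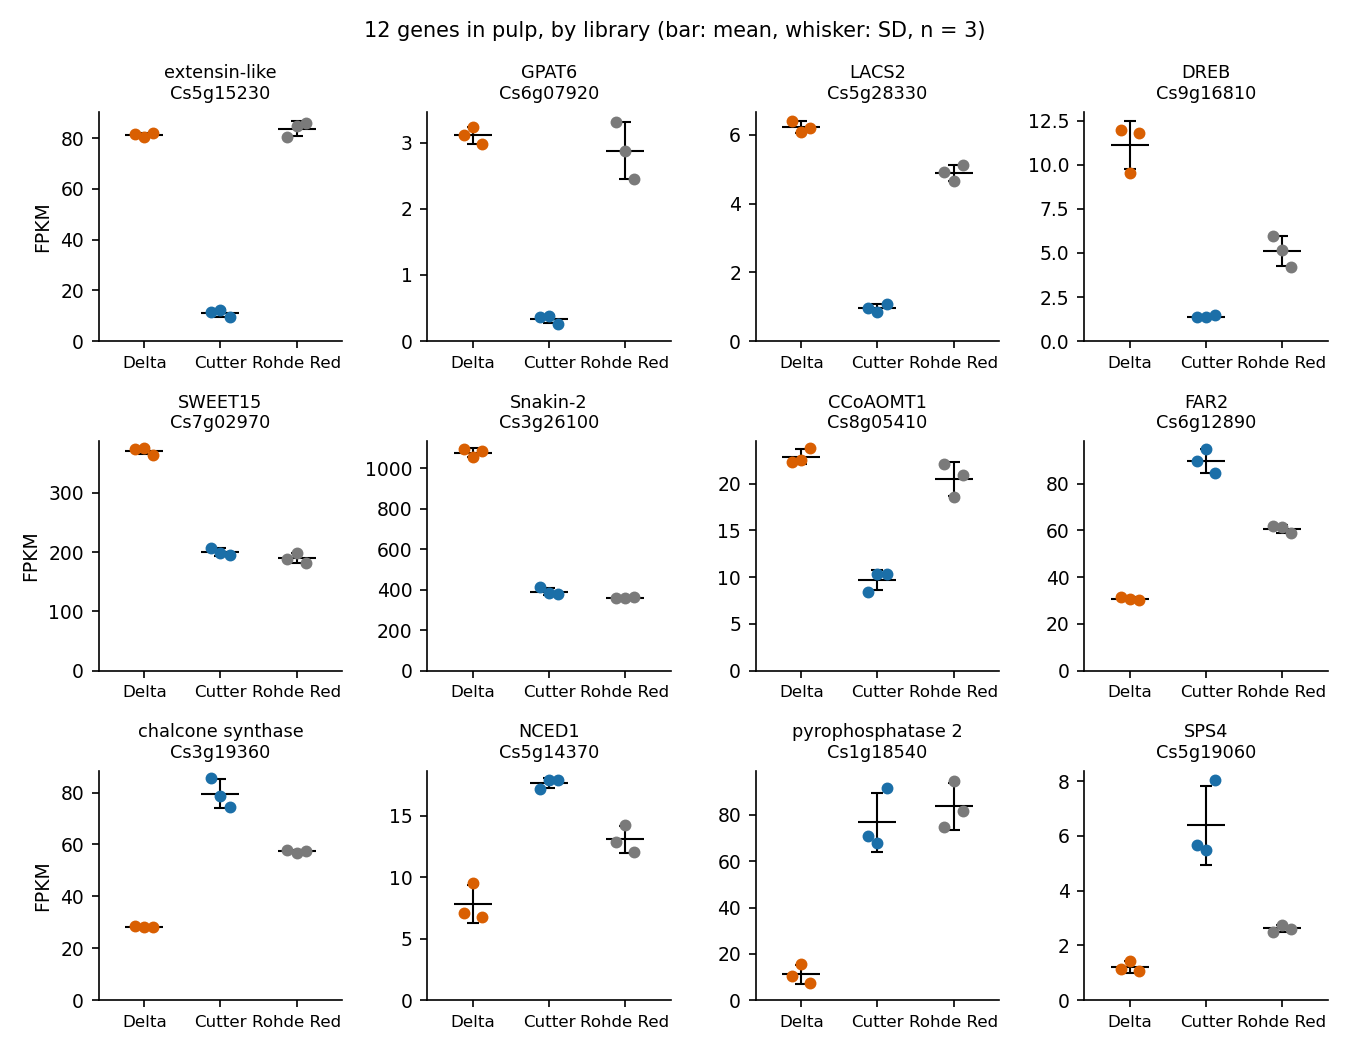
FPKM (vertical axes, from 0) of 12 genes in the 3 pulp libraries of Delta (orange), Cutter (blue) and Rohde Red (grey); bars are means and whiskers SD. In every panel the Delta and Cutter libraries are apart, and Rohde Red lies near Delta for the extensin-like gene, GPAT6, LACS2 and CCoAOMT1, near Cutter for SWEET15, Snakin-2 and pyrophosphatase 2, and between them for FAR2 and chalcone synthase.

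ERF and DREB factors, transcription factors of ethylene, cold and wounding responses, gave the largest number of strong rises among the regulator families. Of 57 kept, 20 were higher and 12 lower (56.1% called, median 0.10), and 13 rose but only 1 fell at least 2-fold. Cs9g16810, a DREB1D gene whose relatives switch on cold and drought genes in Arabidopsis, had 11.97, 9.55 and 11.8 FPKM in Delta pulp, against 1.36, 1.36 and 1.46 FPKM in Cutter pulp (2.90 ± 0.10, adjusted p = 4.7e-07). Its neighbour by ID, Cs9g16820 (ERF025), had 2.46, 1.41 and 1.39 FPKM in Delta and 0.0545, 0.178 and 0.271 FPKM in Cutter (2.83 ± 0.37, adjusted p = 0.00092). ERF109 (Cs8g05910) had 1.30, 1.49 and 1.25 FPKM in Delta and 0.0706, 0.0771 and 0.0702 FPKM in Cutter (3.06 ± 0.24, adjusted p = 5.1e-05). No library of a variety reached the range of the other in these genes. The abundant members barely moved, as in Cs1g16690, described as RAP2-12, an oxygen-sensing factor. The study names this gene CsERF74 and reports it as the hub of a coexpression module that correlated with lignin. It was at 344 to 350 FPKM in Delta and 319 to 328 FPKM in Cutter (0.10 ± 0.02, adjusted p = 0.016). That call was lost under median centring and without Cutter library 2.

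The ERF109, ERF025, ERF017 and DREB1D genes had higher levels in peel than in pulp of both varieties, and none was called higher in Delta peel. Peel levels of the DREB1D gene Cs9g16810 were 46.9, 49.6 and 47.4 FPKM in Delta, against 46.2, 46.0 and 42.7 FPKM in Cutter, and the summed peel-marker level given above was 142 to 152 in Delta pulp and 76.8 to 87.9 in Cutter pulp. The part of peel tissue in the ERF result was not tested. ERF109 (Cs8g05910) had 7.36, 7.49 and 7.62 FPKM in Delta peel, against 14.1, 12.2 and 11.4 FPKM in Cutter peel, and the difference between tissues was 3.80 on the log2 scale (adjusted p = 9.9e-09). ERF017 (Cs4g07040) was higher in Delta pulp (2.79 ± 0.19) and lower in Delta peel (-0.30, adjusted p = 0.0026). The DREB1D gene did not pass the test in peel (0.09, adjusted p = 0.1). Over the family 6 of 63 members kept in peel were higher and 24 lower, and 34 passed the test of the difference between tissues. Over all genes 32.7% were called in peel, and 21.0% passed the test of the difference between tissues. In pulp of the other varieties the DREB1D gene Cs9g16810 averaged 5.12 FPKM in Rohde Red, 2.16 in Jincheng, 23.8 in Taoye and 12.1 in Xianfeng.

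Other regulator families shifted less. NAC factors, many of which act in ripening and stress, had 12 of 46 higher and 6 lower (39.1% called, median 0.18), MYB factors 11 of 46 higher and 2 lower (28.3%, median 0.07), WRKY factors of pathogen defence 5 of 28 higher and 3 lower (28.6%), and MADS-box factors 3 of 24 higher and 4 lower (29.2%). Single libraries moved these counts: NAC to 12 and 3 without Cutter library 2, MYB to 7 and 3 without Delta library 2, WRKY to 3 and 3 without Cutter library 2 or 3 or Delta library 1, and MADS-box to between 1 and 4 higher and between 2 and 4 lower over all 6 omissions. NAC90 (Cs8g14700) had 2.30, 1.77 and 2.45 FPKM in Delta, against 0.248, 0.244 and 0.395 FPKM in Cutter (2.53 ± 0.22, adjusted p = 9.1e-05). MYB44 (Cs3g23070), an abscisic acid and stress regulator in Arabidopsis, averaged 49.8 ± 1.44 FPKM in Delta and 30.1 ± 1.05 FPKM in Cutter (0.73 ± 0.04, adjusted p = 4.7e-06). The MADS-box gene AGL11 (Cs5g17820), whose Arabidopsis counterpart SEEDSTICK specifies ovules and seed coats, had 3.30, 4.57 and 2.10 FPKM in Delta pulp, against 9.51, 8.51 and 13.2 FPKM in Cutter pulp (-1.66 ± 0.26, adjusted p = 0.0025). Every Delta library was below the lowest Cutter library, and the Rohde Red mean was 4.47 FPKM. Both named zinc finger factors of the Dof class, Cs8g18320 (DOF1.1) and Cs6g06180 (DOF2.4), were lower in Delta pulp (-3.46 ± 0.47, adjusted p = 0.0013, and -2.90 ± 0.40, adjusted p = 0.0014) and higher in Delta peel (0.73, adjusted p = 0.013, and 0.82, adjusted p = 0.0024).

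Sugar transporters of the SWEET family, pores that let sugar leave cells or enter vacuoles, moved in opposite directions. SWEET15 (Cs7g02970), the most abundant, had 373, 377 and 365 FPKM in Delta pulp, against 207, 198 and 195 FPKM in Cutter pulp (0.89 ± 0.03, adjusted p = 2.8e-07). SWEET16 (Cs3g14550), of a vacuolar type, had 61.5, 63.2 and 59.4 FPKM in Delta and 26.0, 23.6 and 24.4 FPKM in Cutter (1.31 ± 0.04, adjusted p = 3.6e-07), and SWEET14 (Cs5g32520) 6.004, 6.02 and 5.07 FPKM in Delta and 0.962, 0.394 and 0.757 FPKM in Cutter (2.92 ± 0.25, adjusted p = 9.0e-05). SWEET12 (orange1.1t02627) went the other way, with 0, 0.0306 and 0 FPKM in Delta and 2.04, 0.432 and 0.984 FPKM in Cutter, or 1 fragment over the Delta libraries and 121 over the Cutter libraries (adjusted p = 0.0023). That is 110-fold higher in Cutter, with a 95% counting interval of 19.5 to 4399.5. Of all 49 sugar transporters kept 6 were higher and 8 lower (28.6% called, median -0.03), or 8 and 7 under voom. With any single library left out 4 or 5 were higher and 3 to 5 lower. The summed FPKM of 65 markers of vascular bundles and segment membranes was 543 to 570 in Delta pulp and 339 to 341 in Cutter pulp, but SWEET15 alone makes up most of that sum, and only 5 of 35 markers kept were higher and 3 lower (22.9% called, median -0.02), the lower calls numbering 1 without Cutter library 3.

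Aquaporins, membrane channels for water, were called in 1 direction only. Of 20 kept, 9 were higher and none lower in Delta pulp (45.0% called, median 0.26), with 8 to 10 higher when single libraries were left out, and 1 lower under quantile normalization or with no filter on low values. The abundant plasma membrane PIP1-2 (Cs7g31420) had 755, 725 and 716 FPKM in Delta, against 585, 588 and 579 FPKM in Cutter (0.33 ± 0.02, adjusted p = 4.0e-05), and the vacuolar TIP1-1 (orange1.1t03005) 647, 657 and 658 FPKM in Delta, against 496, 511 and 490 FPKM in Cutter (0.39 ± 0.02, adjusted p = 9.5e-06). PIP2-7 (Cs8g02530) showed the largest rise of a well expressed member, at 29.8, 28.1 and 26.9 FPKM in Delta and 11.4, 11.8 and 11.2 FPKM in Cutter (1.29 ± 0.05, adjusted p = 6.3e-07). In peel, where 32.7% of all genes were called, 8 of 23 were higher and 1 lower.

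Genes of sugar and acid storage had more lower than higher calls, by margins that single libraries moved. Of 86 sucrose and starch genes 14 were higher and 20 lower (39.5% called, median -0.07), and of 76 genes of organic acids and vacuolar acidification 8 were higher and 16 lower (31.6%, median -0.04). Without Cutter library 3 the sucrose and starch counts were 13 higher and 11 lower, and without Cutter library 1, Delta library 2 or Delta library 3 the organic acid counts were 5 higher and 10 lower. Sucrose-phosphate synthase 4 (Cs5g19060), which makes the precursor of sucrose, had 1.14, 1.44 and 1.05 FPKM in Delta pulp, against 5.65, 5.47 and 8.04 FPKM in Cutter pulp (-2.30 ± 0.17, adjusted p = 3.4e-05), with no call in peel (-0.10, adjusted p = 0.059). Galactinol synthase 1 (Cs7g08770), the entry to raffinose sugars, had 2.13, 2.20 and 2.44 FPKM in Delta and 4.86, 8.10 and 12.1 FPKM in Cutter (-1.75 ± 0.27, adjusted p = 0.0023), and was higher in Delta peel (0.91, adjusted p = 9.2e-06). The kinase Cs8g12690, which activates phosphoenolpyruvate carboxylase in organic acid synthesis, fell by 1.41 ± 0.27 (adjusted p = 0.0075). The tonoplast dicarboxylate transporter Cs2g02120, a carrier of malate and citrate, averaged 159 ± 3.7 FPKM in Delta and 183 ± 1.32 FPKM in Cutter (-0.20 ± 0.02, adjusted p = 0.00072).

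The fall of highest level among the 15 largest was Cs1g18540, described as inorganic pyrophosphatase 2, an enzyme type that splits the pyrophosphate released by biosynthetic reactions. It had 10.6, 15.5 and 7.54 FPKM in Delta pulp, against 71.0, 68.1 and 91.5 FPKM in Cutter pulp (-2.82 ± 0.23, adjusted p = 5.7e-05). Delta stood apart in peel as well, at 28.1, 29.2 and 31.6 FPKM against 90.6, 92.2 and 94.5 FPKM in Cutter peel (-1.64, adjusted p = 1.3e-07). Rohde Red pulp averaged 83.8 FPKM, like Cutter.

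Flavonoid and terpene genes of the pulp included clear falls. Chalcone synthase (Cs3g19360), which starts flavonoid synthesis, had 28.6, 28.1 and 28.1 FPKM in Delta, against 85.6, 78.6 and 74.5 FPKM in Cutter (-1.49 ± 0.05, adjusted p = 3.2e-07), and a flavonoid 3'-monooxygenase, Cs1g10500, had 1.44, 1.37 and 1.70 FPKM in Delta, against 0.139, 0.195 and 0.118 FPKM in Cutter (2.68 ± 0.23, adjusted p = 8.6e-05). Over the flavonoid core 6 of 25 were higher and 5 lower (44.0% called, median 0.03), or 5 and 3 without Cutter library 2 or Delta library 3. Of 24 terpene synthases, which make aroma compounds, 3 were higher and 8 lower (45.8% called, median -0.11). The limonene synthases Cs3g04360 and Cs3g04170 averaged 49.2 ± 4.7 and 20.4 ± 0.234 FPKM in Delta, against 81.4 ± 0.962 and 42.4 ± 2.77 FPKM in Cutter, with log2 differences of -0.73 ± 0.06 (adjusted p = 7.3e-05) and -1.05 ± 0.05 (adjusted p = 2.4e-06). They share a description, as do the NCED1, light-induced, endochitinase, 2S and ESD4 genes below, and how reads were divided between such copies is uncertain. The terpene synthase median ran between -0.31 and 0.01 when single libraries were left out, the highest without Cutter library 3.

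Carotenoid and abscisic acid genes, which set pulp colour and ripening signals, were mostly at similar levels. Of 38 kept, 1 was higher and 6 lower (18.4% called, close to the 18.2% of all genes, median -0.09). The exceptions in size were the NCED1 genes, which cleave carotenoids in the committing step of abscisic acid synthesis. Cs5g14370 had 7.08, 9.55 and 6.76 FPKM in Delta pulp, against 17.2, 17.9 and 17.9 FPKM in Cutter pulp (-1.19 ± 0.11, adjusted p = 0.00017), and Cs2g03270 had 9.85, 13.2 and 10.2 FPKM in Delta and 19.3, 20.3 and 21.6 FPKM in Cutter (-0.89 ± 0.10, adjusted p = 0.0005). Both were lower in Delta peel too (-1.77, adjusted p = 1.2e-06, and -0.33, adjusted p = 0.003). Phytoene synthase (Cs6g15910), the entry to carotenoids, averaged 59.7 ± 1.7 FPKM in Delta and 66.9 ± 1.38 FPKM in Cutter (-0.16 ± 0.03, adjusted p = 0.0077). Ethylene synthesis and perception had 1 of 22 higher and 4 lower (22.7% called), the lower calls numbering 1 without Cutter library 1 and 2 without Cutter library 3, Delta library 1 or Delta library 3.

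Light and heat genes gave few called members with large differences. Photosynthesis genes numbered 5 higher and 7 lower of 54 in pulp (22.2% called, median -0.10). In peel, where 32.7% of all genes were called, 2 of 55 were higher and 37 lower, with a median of -0.57. The early light-induced protein genes, which shield chlorophyll-binding complexes under excess light, were the main risers: Cs9g07670 had 125, 124 and 129 FPKM in Delta pulp and 41.1, 43.2 and 41.0 FPKM in Cutter pulp (1.59 ± 0.03, adjusted p = 7.2e-08), and its neighbour Cs9g07680 had 364, 354 and 345 FPKM in Delta and 251, 256 and 245 FPKM in Cutter (0.50 ± 0.03, adjusted p = 6.8e-06). Chlorophyll synthesis and breakdown had 2 of 21 higher and 3 lower (23.8% called), and 1 or 2 each way with any single library left out. Heat shock genes had 12 of 77 higher and 18 lower (39.0% called, median -0.01; 7 and 12 without Cutter library 2), with the abundant small chaperone Cs6g07320 at 1200.5 to 1255 FPKM in Delta and 1541 to 1643 FPKM in Cutter (-0.38 ± 0.03, adjusted p = 4.5e-05). Clock and light perception genes had 5 of 48 higher and 7 lower (25.0% called). The 5 higher calls became 0 without Cutter library 1, Cutter library 2 or Delta library 2, and 1 without Delta library 1. Among dehydrin and cold-regulated genes 3 of 12 were higher and 4 lower (58.3%).

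Defence proteins were led by large rises. Of 89 pathogenesis-related genes 24 were higher and 10 lower (38.2% called, median 0.06), with 6 lower without Cutter library 1 or Delta library 3, and 13 rose and 2 fell at least 2-fold. Snakin-2 (Cs3g26100), a cysteine-rich antimicrobial peptide in potato, had 1095, 1056 and 1084 FPKM in Delta pulp, against 411, 383 and 378 FPKM in Cutter pulp (1.46 ± 0.03, adjusted p = 8.2e-08). The endochitinases Cs8g01840 and Cs8g01850, neighbours by ID that digest fungal chitin, were higher in both tissues. Cs8g01840 had 8.53, 11.2 and 9.02 FPKM in Delta, against 1.27, 0.9753 and 1.06 FPKM in Cutter (3.01 ± 0.13, adjusted p = 1.8e-06, and 2.31 in peel), and Cs8g01850 had 29.7, 33.6 and 27.9 FPKM in Delta, against 7.52, 5.86 and 8.46 FPKM in Cutter (2.06 ± 0.12, adjusted p = 1.1e-05, and 2.15 in peel). In pulp Rohde Red lay between Delta and Cutter at 3.04 and 17.7 FPKM, and the CO pulp means were all under 0.2 FPKM. The Kunitz trypsin inhibitor Cs5g16780, of a class that blocks insect digestive enzymes, had 9.18, 7.94 and 11.4 FPKM in Delta and 1.33, 1.04 and 1.23 FPKM in Cutter (2.87 ± 0.14, adjusted p = 4.1e-06).

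Hormone genes gave moderate counts. Auxin genes had 18 of 71 higher and 5 lower (32.4% called, median 0.02), jasmonate and lipoxygenase genes 6 of 26 higher and 2 lower (30.8%), and gibberellin and cytokinin genes 9 of 47 higher and 5 lower (29.8%). With a single library left out the auxin counts ran from 13 to 18 higher and from 2 to 5 lower, fewest higher without Cutter library 2 and fewest lower without Cutter library 1. The gibberellin and cytokinin counts ran from 7 to 10 higher and from 3 to 6 lower, with 3 lower without any 1 of the Cutter libraries or Delta library 3. SAUR50 (Cs1g19430), of a family of early auxin-induced growth proteins, had 3.14, 2.61 and 2.56 FPKM in Delta, against 0.220, 0.360 and 0.437 FPKM in Cutter (2.74 ± 0.22, adjusted p = 5.4e-05). Gibberellin-regulated protein 14 (Cs6g20220) had 10.6, 11.2 and 11.98 FPKM in Delta and 2.66, 2.83 and 3.50 FPKM in Cutter (1.88 ± 0.10, adjusted p = 6.4e-06), and the more abundant relative Cs3g15690 averaged 573 ± 15.7 FPKM in Delta and 397 ± 21.5 FPKM in Cutter (0.53 ± 0.04, adjusted p = 3.6e-05). UDP-glycosyltransferases, which attach sugars to small molecules, had 17 of 99 higher and 12 lower (29.3%). Lists of basic cell functions were under the 18.2%, with 10 higher and 5 lower of 112 cell cycle and histone genes (13.4%; 9 each way under quantile normalization) and 23 higher and 4 lower of 262 ribosomal proteins (10.3%). The ribosomal count higher was 15 without Delta library 2 or 3, and the cell cycle count lower was 3 without Cutter library 1, Delta library 1 or Delta library 3.

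**Figure D3:**
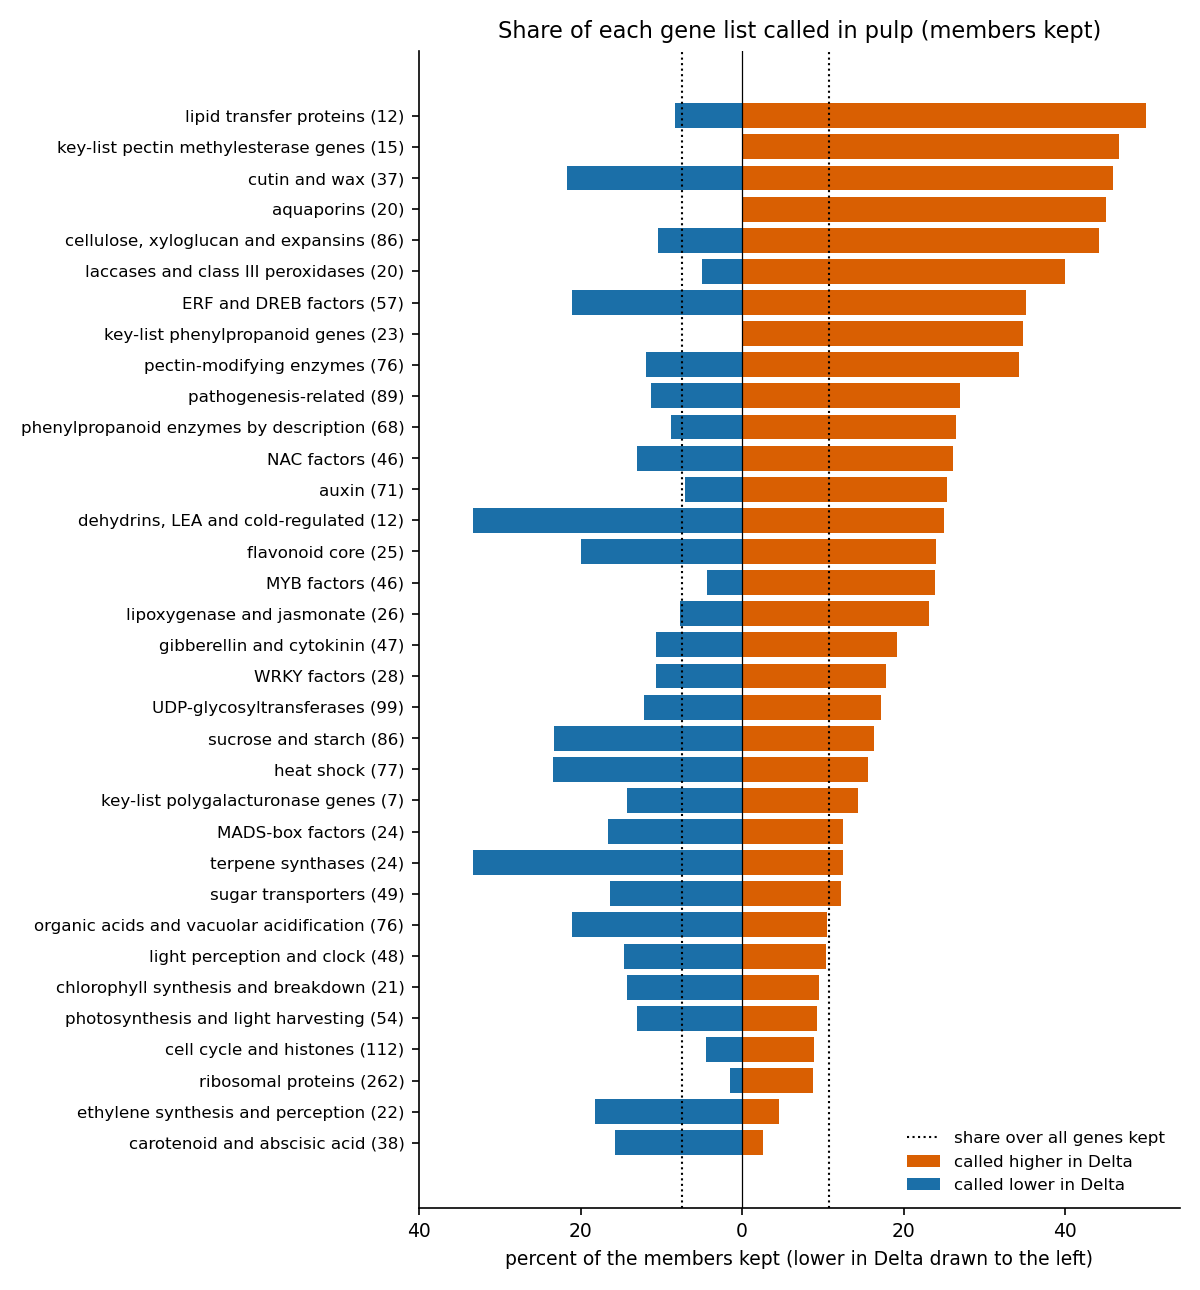
Percent of the members kept that were called higher in Delta pulp (orange, to the right) and lower (blue, to the left) for 34 gene lists, with the number of members kept in brackets. Dotted lines mark 10.8% higher and 7.43% lower over all genes kept. Lipid transfer proteins, the study's pectin methylesterases, cutin and wax, aquaporins and wall genes lie furthest to the right. The carotenoid, ethylene and ribosomal lists are among those within the right-hand line.

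Several seed storage genes were at 0 in Delta pulp. Storage proteins and oleosins fill the seed embryo, and seeds or seed remnants can be left in dissected pulp. The 2S storage protein gene Cs4g11110 had no fragment in any Delta pulp library, against 0.817, 1.03 and 17.7 FPKM in Cutter pulp, at least 139-fold higher in Cutter (floor of 3 fragments over the Delta libraries, adjusted p = 0.01). Without Cutter library 3 the bound was 19.03-fold. Its call was lost with a pseudocount of 1 (adjusted p = 0.0999) and under voom on recovered fragments (adjusted p = 0.055). Cs4g11130, another 2S gene, was at 0 in Delta and at 1.53, 1.501 and 6.13 FPKM in Cutter (at least 54.2-fold higher in Cutter, adjusted p = 0.00033, at least 26.5-fold without Cutter library 3), and Legumin B Cs9g10380 at 0 in Delta and 2.35, 1.85 and 1.497 FPKM in Cutter (at least 61.8-fold higher in Cutter, adjusted p = 1.8e-05). Oleosin 1 (Cs9g13650), which coats oil bodies, was at 0 in Delta and 0.0863, 0.377 and 7.81 FPKM in Cutter and did not pass the test (adjusted p = 0.098).

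Cutter library 3 stood high for the 2S genes and the oleosin, not for legumin. Over the 21 seed and embryo markers kept, 1 was higher and 7 lower in Delta (38.1% called) with a median of -0.74. Of the 21, 5 were at 0 in 1 variety. Such markers passed the filter only through the other variety, which fixes their direction. With no filter on low values 30 markers were fitted, 1 higher and 6 lower, with a median of -0.51. Without Cutter library 3, 17 markers were kept, 1 higher and 5 lower, and the median was -0.33; without Cutter library 2 it was -1.13. The summed FPKM of the whole list, 7867 to 8134 in Delta and 7470 to 7721 in Cutter, does not show this. Lea5 (Cs9g04210), a stress protein, makes up nearly all of that sum and was not called (0.07, adjusted p = 0.077). In which cells of the pulp Lea5 is made was not tested. In peel Cs4g11130 was also at 0 in all Delta libraries, against 2.41, 0.658 and 0.937 FPKM in Cutter (at least 23.8-fold higher in Cutter). The legumins were not confined to Cutter pulp. Cs9g10380 averaged 2.63 FPKM in Cutter peel and 1.90 FPKM in Cutter pulp, and Cs9g10390 2.02 and 2.07 FPKM. The 2S genes Cs4g11110 and Cs4g11130 were lower in Cutter peel, at means of 0.552 and 1.34 FPKM, against 6.53 and 3.05 FPKM in Cutter pulp. Rohde Red pulp, although also listed as without seeds, had 1.62 to 2.70 FPKM of Cs4g11130 and 2.37 to 3.23 FPKM of Cs9g10380, for Cs9g10380 above every Cutter library. Whether seed tissue was in any of these samples was not tested.

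A block of 4 neighbouring gene IDs, Cs9g17760 to Cs9g17790, was much lower in Delta pulp. Cs9g17760 and Cs9g17780 are described as ubiquitin-like-specific proteases ESD4, enzymes that remove the SUMO tag from proteins, and the IDs between and after them have no description. Cs9g17790 had 0.364, 0.663 and 0.907 FPKM in Delta pulp, against 7.61, 8.04 and 6.86 FPKM in Cutter pulp (-3.42 ± 0.25, adjusted p = 3.0e-05), and 0.057, 0.0583 and 0.053 FPKM in Delta peel, against 10.7, 10.8 and 10.8 FPKM in Cutter peel, or 3 fragments in Delta peel and 524 in Cutter peel (ratio 192, 95% counting interval 65.4 to 934). Cs9g17780 had 0.194, 0.265 and 0.217 FPKM in Delta pulp, against 3.20, 3.62 and 4.44 FPKM in Cutter pulp (-3.56 ± 0.18, adjusted p = 4.5e-06). Cs9g17770 had no fragment in Delta pulp and 1.92, 1.21 and 1.96 FPKM in Cutter pulp (at least 35.6-fold higher in Cutter), and Cs9g17760 had 1 fragment in Delta pulp and 188 in Cutter pulp, a ratio of 172 with a 95% counting interval of 30.4 to 6816.

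The IDs on either side of the block, looked at after its values were seen, did not share the fall. Cs9g17750, a DCR acyltransferase of cutin formation, was higher in Delta pulp (1.09, adjusted p = 0.00115), and Cs9g17800, another DCR gene, was not called (-0.06, adjusted p = 0.85). Rohde Red pulp averaged 1.05 FPKM of Cs9g17760, 1.33 of Cs9g17770, 4.32 of Cs9g17780 and 7.82 of Cs9g17790, all close to Cutter. Taoye averaged 1.57, 1.93, 3.86 and 10.9 FPKM in the same order, while Jincheng and Xianfeng had 12.3 to 18.5 FPKM of Cs9g17760 and Cs9g17770 and at most 0.102 FPKM of Cs9g17780 and Cs9g17790. Sequence similarity among these genes could split reads between them, and the shares of reads were not examined.

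The reverse pattern was found at Cs9g09220 and Cs9g09230, neighbouring IDs with no curated description. Cs9g09230 had 4.05, 4.03 and 4.21 FPKM in Delta pulp and no fragment in Cutter pulp, at least 165-fold higher (adjusted p = 7.2e-07). Cs9g09220 had 3.15, 4.29 and 3.96 FPKM in Delta and likewise none in Cutter, at least 161-fold higher (adjusted p = 1.6e-06). These were the largest rises among the genes called in pulp. Rohde Red had 4.33 and Taoye 8.72 FPKM of Cs9g09230, while Jincheng and Xianfeng had 0.0365 and 0 FPKM, so the variety pattern was a presence in 3 of 6 varieties. In peel the levels were lower, at 0.216, 0.276 and 0.527 FPKM in Delta and 0, 0.0568 and 0 FPKM in Cutter.

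A longer run of neighbouring IDs was mostly lower in Delta. Sweet orange gene IDs carry a chromosome number and are numbered in order, so consecutive IDs can be read as a map, although positions were not used here. In windows of 20 consecutive kept IDs the median number of called genes was 4 in 13478 windows. In the window Cs4g16080 to Cs4g16380, 17 of 20 were called lower and 1 higher in pulp, with a median log2 difference of -0.54 (0.687 times the Cutter level), and 18 were lower in peel, with a median of -0.87 (0.547 times). Single differences in it ran between -0.98 and 0.79 in pulp and between -1.54 and -0.25 in peel. The 20 kept IDs before it had medians of -0.01 in pulp and 0.04 in peel, and the 20 after it -0.03 and -0.01. The window with the largest shared median on any other chromosome, Cs1g05070 to Cs1g05570, had medians of 0.23 in pulp and 0.20 in peel.

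The run holds genes of unrelated roles, and those named here were picked after their values were seen. Peroxiredoxin-2 (Cs4g16140), which breaks down peroxides, had 187, 184 and 186 FPKM in Delta pulp, against 287, 274 and 281 FPKM in Cutter pulp (-0.60 ± 0.02, adjusted p = 1.3e-06). The plastid glucose transporter Cs4g16110 had 33.0, 33.6 and 33.9 FPKM in Delta and 49.8, 52.5 and 52.0 FPKM in Cutter (-0.62 ± 0.03, adjusted p = 5.1e-06), and AIM1 (Cs4g16080), of fatty acid beta-oxidation, had 18.1, 18.3 and 17.8 FPKM in Delta and 25.2, 23.7 and 25.0 FPKM in Cutter (-0.45 ± 0.04, adjusted p = 9.2e-05). The exception was the small GTPase gene Cs4g16130, higher in Delta pulp at 2.50, 2.80 and 2.14 FPKM, against 1.06, 1.53 and 1.63 FPKM in Cutter (0.79 ± 0.18, adjusted p = 0.015). Rohde Red minus Cutter had a median of -0.07 over the same 20 IDs in pulp, and Jincheng, Taoye and Xianfeng medians of -0.03, -0.21 and -0.05. The window was found by searching all windows, so its values describe it and are no test, and DNA copy number was not measured in these files.

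**Figure D4:**
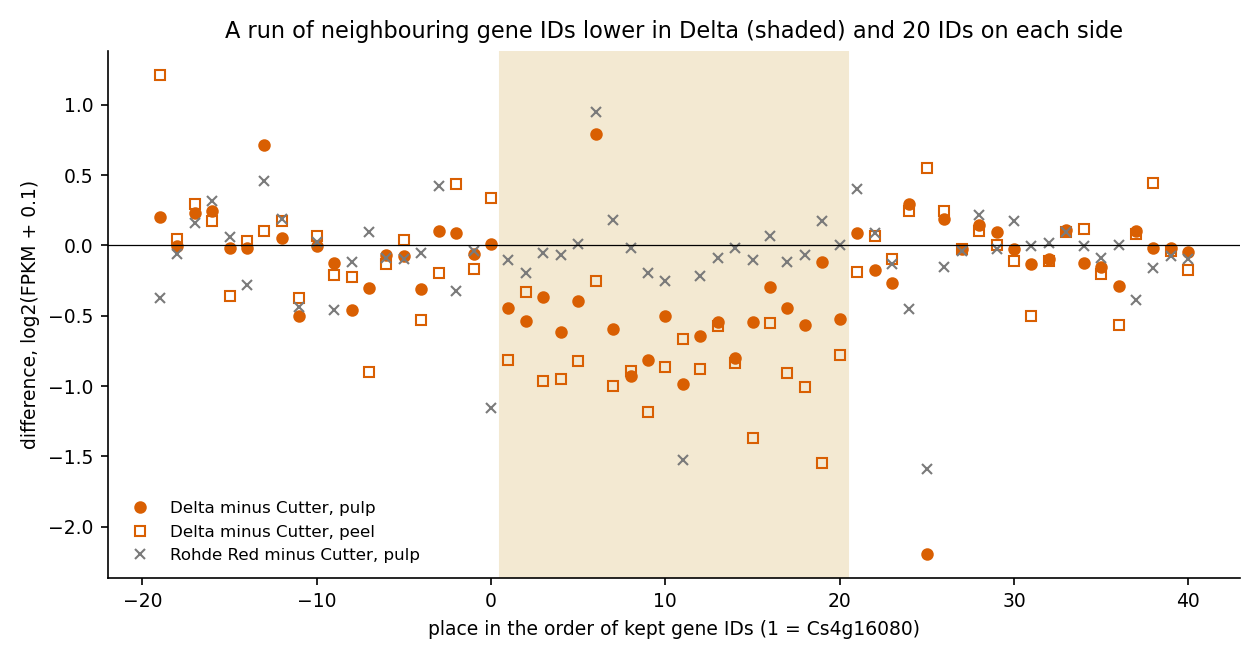
Log2 differences for the 20 kept gene IDs from Cs4g16080 to Cs4g16380 (shaded) and 20 kept IDs on each side (horizontal axis, place in ID order). Filled circles are Delta minus Cutter in pulp, open squares Delta minus Cutter in peel and crosses Rohde Red minus Cutter in pulp. Inside the shading the circles have a median of -0.54 and the squares -0.87. Outside it both have medians near 0, with some far points. Cs4g16650, after the shading, was at -2.19 in pulp and 0.55 in peel, and peel differences before the shading ran from -0.90 to 1.21.

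Pulp differences were compared with those in peel of the same varieties. In peel 5793 of 17694 genes (32.7%) were called. Of 2910 genes called in pulp and tested in both tissues, 1591 were called in peel too, 1164 in the same direction (634 higher and 530 lower in Delta) and 427 in the opposite direction. The test of the difference between tissues itself called 3820 of 18176 genes (21.0%), with the pulp difference above the peel difference in 2132 and below it in 1688, a split of 1852 and 2221 when each library was centred on its median. Among the 2910 genes it was passed by 1543, including all 427 with opposite directions, of which 284 were higher in pulp and lower in peel. Opposite differences add up in this test, so the 427 passes follow nearly from the calls themselves. The 2910 genes were chosen with the same pulp libraries that the test uses, so 1543 is not an independent count. Only 66 genes were changed at least 2-fold in the same direction in both tissues, 34 higher and 32 lower in Delta. Each variety's fruits were dissected into the tissues, but whether peel and pulp libraries of the same number come from the same fruits is not given in the sources used here. Deviations of same-numbered libraries correlated at -0.019 to 0.02, and with each variety's replicate number as a block, a fit chosen after seeing the data, 3297 genes were called, 1861 and 1436.

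Genes that changed in both tissues included the legumins, the 2S gene Cs4g11130, the block at Cs9g17760 to Cs9g17790 and the endochitinases. Cs9g10390, a second Legumin B gene, had 0.406, 0.426 and 0.263 FPKM in Delta pulp, against 2.13, 2.58 and 1.49 FPKM in Cutter pulp, and in peel 2 fragments in Delta against 191 in Cutter (ratio 105, 95% counting interval 28.7 to 873). Among genes with opposite directions were Cs3g07150, a WAT1-related transporter, and the phosphate exporter PHO1 (Cs9g09780). Cs3g07150 had 0.220, 0.624 and 0.974 FPKM in Delta pulp, against 1.80, 4.92 and 7.51 FPKM in Cutter pulp, and 7.83, 7.88 and 7.52 FPKM in Delta peel, against 4.41, 3.53 and 4.82 FPKM in Cutter peel. Its pulp libraries were spread several-fold within each variety and still did not overlap, and the difference between tissues was -3.59 (adjusted p = 0.002).

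**Figure D5:**
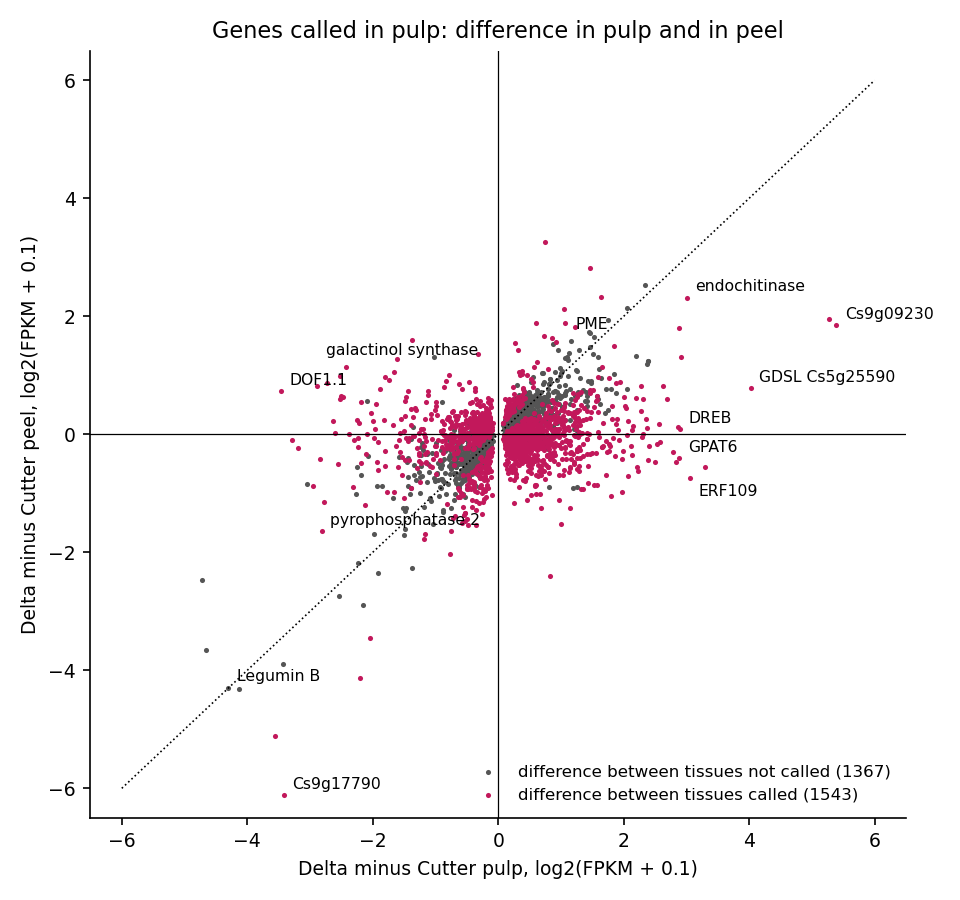
Delta minus Cutter on log2(FPKM + 0.1) in pulp (horizontal axis) and peel (vertical axis) for the 2910 genes called in pulp and tested in both tissues. Red points passed the test of the difference between tissues (1543) and grey points did not (1367); the dotted line marks equal differences, along which legumin lies, while GPAT6, DREB and ERF109 lie far to the right with peel differences near or below 0.

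Rohde Red did not enter the fit, and its pulp means were placed against those of Delta and Cutter. The mean lay nearer to Delta than to Cutter in 66.1% of the 1776 genes called higher in Delta and in 54.4% of the 1224 called lower, against 55.1% of all genes kept. For falls of at least 2-fold the share was 35.6% of 188, and for rises of at least 2-fold 63.4% of 306. Pyrophosphatase 2 and the block of IDs on chromosome 9 were among the large falls with Rohde Red on Cutter's side. The CO varieties were nearer to Delta in 18.2% to 29.3% of the genes called higher and in 34.2% to 37.8% of those called lower, against 38.2% of all genes kept in Jincheng, 41.1% in Taoye and 41.8% in Xianfeng. These are counts without a test, the nearer variety was judged from means of 3 libraries each, and choosing genes for a gap between Delta and Cutter itself shifts where another variety falls.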

How the data were processed

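RNA was sequenced from peel and pulp of 6 sweet orange varieties, 3 libraries each, and the Delta and Cutter Valencia pulp libraries were compared. The authors mapped reads with TopHat2 to the sweet orange genome, quantified them with RSEM and deposited FPKM per gene; DESeq 1.10.1 is also named in the submitters' processing notes, while the genome build and annotation release are not given in the sources used here. The deposited table also holds gene length, Swiss-Prot descriptions (21506 of 29654 genes) and other annotation; 8229 IDs matched 1 RefSeq symbol. Columns of samples outside the labels numbered 0. The labels and the study's methods differ on how many trees a replicate pooled.

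Genes at a mean of 0.3 FPKM or more in either variety were tested on log2(FPKM + 0.1) with limma 3.58.1 (trend, R 4.3.3), only the compared libraries in the fit, and Benjamini-Hochberg adjusted p under 0.05; fold changes on this scale understate those of low genes. Peel was fitted the same way, and the difference between tissues by an interaction term over 12 libraries. Fragments recovered from FPKM, length and library total were whole in 100% of values within 0.02, and voom on them called 3727 genes. Floors (3 fragments) and 95% exact intervals cover counting error only. Counts over lists, positions and figures used Python 3.11.15 with pandas 2.3.3 and scipy 1.17.1, and the fits were tested on simulated data.

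The members and lists were chosen with earlier results of these data known. Named genes were the 15 largest rises and falls at 1 FPKM or more, the 5 most abundant called genes, up to 4 called members a list (by level and by fold change), genes the study names, genes called in both tissues, the strongest opposite pairs, and genes near 0 in 1 variety; the text says where a gene was picked otherwise, and Lea5 and the genes that bound windows of IDs were too. Alternatives were the pseudocount, the filter, centring, quantile normalization, voom, all 18 pulp libraries, a replicate block and leaving out each library; a block within each variety was added after seeing the data.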

Additional observations from a re-analysis of the deposited data

Results flagged for a closer look

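Each gene here drew attention because its Delta minus Cutter difference in pulp and that in peel were unlike each other by the test of the difference between tissues, which 3820 genes passed. Values are the pulp difference minus the peel difference on log2(FPKM + 0.1); for genes with few fragments in either tissue their size depends on the pseudocount.

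The pulp difference was above the peel difference for regulators of stress responses, by 3.80 for ERF109 (Cs8g05910), 3.30 for ERF025 (Cs9g16820), 3.10 for ERF017 (Cs4g07040) and 2.81 for DREB1D (Cs9g16810). The same held for surface and wall genes, by 3.29 for GPAT6 (Cs6g07920), 3.24 for the GDSL esterase Cs5g25590 and 1.07 for the extensin-like Cs5g15230. Cs9g09230 and Cs9g09220, without fragments in Cutter pulp, had values of 3.53 and 3.32. Cutter peel had 2 fragments of Cs9g09230 and 1 of Cs9g09220. The peel ratios, Delta over Cutter, were 17.7 (95% counting interval 4.59 to 152) and 34.6 (5.84 to 1401). For Cs9g09220 that interval holds the lower bound given above for pulp, so its counts alone do not separate the tissues. Glutaredoxin-C11 (Cs5g32560), a small redox enzyme, was at 3.85, the Kunitz inhibitor Cs5g16780 at 2.75, the flavonoid 3'-monooxygenase Cs1g10500 at 2.09, SWEET14 (Cs5g32520) at 1.60 and SAUR50 (Cs1g19430) at 1.18. For Cs9g17790, Legumin B Cs9g10390 and ESD4 Cs9g17780, lower in Delta in both tissues, values of 2.70, 1.92 and 1.56 mean that the fall was larger in peel.

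The pulp difference was below the peel difference by -4.19 for DOF1.1 (Cs8g18320), -3.72 for DOF2.4 (Cs6g06180), -3.59 for the WAT1-related Cs3g07150, -3.57 for PHO1 (Cs9g09780) and -3.20 for SWEET12 (orange1.1t02627). It was -2.95 for the metal-binding isoprenylated protein Cs5g01190, -2.42 for orange1.1t04042, which has no description, -2.08 for the glucan endo-1,3-beta-glucosidase Cs4g08530 and -1.18 for pyrophosphatase 2 (Cs1g18540).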

How the results depend on the processing

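Of 179 named genes, 138 kept their direction and side of the threshold under all 15 alternatives, 39 of the 171 called lost the call under at least 1, and none reversed. The pulp count of 3000 ran from 2695 to 3727 under other pseudocounts, filters, scalings and fits, and from 2301 to 2405 with a library left out, where fewer samples were fitted. The share of called genes higher in Delta was 59.2%, 54.2% after median centring and 52.3% after quantile normalization, which moved the median difference by -0.014 and -0.021. The count of 2-fold changes was 494, but 178 with a pseudocount of 1, which shrinks fold changes of low genes; it was 345 with a filter at 1 FPKM, and 442 to 473 with a library left out. The peel count ran from 4667 to 4998 and that of the difference between tissues from 3207 to 3476 with a library left out. Replicate numbers did not pair the libraries (correlations of same-numbered deviations -0.007 to 0.023), and the replicate block called 2695 genes in pulp, 457 with a 2-fold change, 5360 in peel and 3711 between tissues. The variety-wise block over pulp and peel, chosen after seeing the data, called 3297 between tissues. Depth limits genes near 0.3 FPKM, and 3 libraries a variety limit small differences.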

Other observations

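Some hormone and stress genes of moderate level rose in Delta pulp, while lists of such genes had calls in both directions. Ethylene synthesis and perception had 1 of 22 higher and 4 lower (22.7% called, against 18.2% of all genes). Dehydrin and cold-regulated genes had 3 of 12 higher and 4 lower (58.3%), and jasmonate and lipoxygenase genes 6 of 26 higher and 2 lower (30.8%). ACO1 (Cs4g13870), which makes ethylene from its precursor, had 34.0, 38.4 and 38.6 FPKM in Delta pulp, against 21.8, 21.2 and 23.0 FPKM in Cutter pulp (log2 difference 0.75, limma). TIFY10A (Cs1g17220), a repressor of jasmonate responses, had 68.7, 71.2 and 73.8 FPKM in Delta, against 39.8, 38.9 and 39.0 FPKM in Cutter (0.86). Every Delta library was above every Cutter library in both genes. Lea14-A (Cs4g10930), a protein of dehydration tolerance, had 79.6, 71.7 and 74.5 FPKM in Delta and 45.7, 42.5 and 42.8 FPKM in Cutter (0.78), the opposite side from the seed storage genes.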
